A study of Danio rerio with 15 samples.

Results

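Among the genes measured by RNA sequencing in zebrafish testis, 200 were high in depleted testes and back near the control level in recovering testes. They were chosen on the measured values themselves, from 33752 Ensembl gene identifiers. Levels are given as CPM, the count of a gene times 1000000 over the total of its library. A gene was eligible if its mean level was under 500 CPM in all 3 groups and at least 10 CPM in depleted testes. Its depleted mean also had to be at least 4 times its control mean, and its recovering mean at most 1.5 times its control mean, with 0.5 CPM added to every mean. These conditions were met by 337 genes, and the 200 with the largest ratio of depleted to control were kept. Of the 200, 165 (82.5%) carry a symbol in the gene table used here, and symbols are spelled as in that table.

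All fish were adult wild-type zebrafish (Danio rerio), and total RNA came from testis tissue. The libraries analysed were 5 from depleted testes, 5 from recovering testes and 4 from control testes, described by the submitters as biological replicates, while control replicate 2 was not analysed here. How the testes were depleted, how long they recovered and whether fish were pooled are not given in the labels. The series title places the work in the hormonal control of spermatogenesis by follicle-stimulating hormone, retinoic acid and androgens.

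Library totals ran from 8123444 to 10059498 counts in depleted, from 8661834 to 25035915 in recovering and from 8617589 to 48646941 in control testes. A count of 0 therefore allows up to 0.369, 0.346 and 0.348 CPM in the shallowest library of the depleted, recovering and control groups, for counting error alone. Summed over a list of 8 germ cell genes, the level was 2799, 3028, 98.0, 284 and 14.5 CPM in depleted replicates 1 to 5. It was 5802 to 9715 CPM in recovering and 7829 to 8746 CPM in control testes. The depleted libraries thus differed in the level of germ cell genes, which was highest in replicates 1 and 2. A list of 19 liver genes summed to 6726 and 18928 CPM in depleted replicates 1 and 4, against 108 to 447 CPM in the other depleted, 81.9 to 1489 CPM in the recovering and 73.1 to 456 CPM in the control libraries. A list of 12 genes of the exocrine pancreas summed to 14192 CPM in depleted replicate 2, 2777 CPM in recovering replicate 2 and 7726 CPM in recovering replicate 5, and to at most 402 CPM in every other library. These libraries stand apart. Without recovering replicates 2 and 5, 179 of the 200 members still passed the thresholds, not counting the cut to the largest ratios. Results that rest on depleted replicates 1 and 4 are given below with and without them.

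The testis holds germ cells at all stages of sperm formation, Sertoli cells that nurse them and Leydig cells that make androgens. In fish as in mammals, the pituitary hormones FSH and LH reach these somatic cells through their own receptors. The blood and lymph spaces between the tubules bring in immune cells and the secreted proteins of the plasma. Many plasma proteins, among them the clotting factors, the carriers of lipid and metal and most of the complement cascade, are made chiefly by the liver. In bulk tissue, more cells of a type and more RNA per cell cannot be told apart.

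The depleted mean was between 4.99 and 52.2 times the control mean, with a median ratio of 7.20, and was at least 10-fold higher for 56 of the 200 genes. The ratio of recovering to control had a median of 1.18 and was below 1 for 51 genes. These ratios chose the genes and are a description of them. In edgeR's quasi-likelihood test over all 21277 genes that passed the filter on low counts, 184 of the 194 members tested were higher in depleted than in control testes (adjusted p under 0.05), against 34.2% of all tested genes. The fibrinogen chain gene fga, the plasminogen gene PLG and the complement gene c5 were among the 10 not called. Of the same 194, 190 were lower in recovering than in depleted testes, where 30.5% of all tested genes were lower. Recovering and control testes differed for 0 of the 194 in edgeR, 1 of them at an unadjusted p under 0.05, for 0 in DESeq2 and for 0 in limma's voom. In edgeR 0.451% of all genes were called in that comparison. Nothing about the members can be read from these counts, since the same contrasts chose them. The test scaled libraries by TMM factors, and with library totals alone the median log2 fold change of depleted over control was 2.99 instead of 3.41 for the members and -0.34 instead of 0.03 for all tested genes. With totals 5565 genes were called higher and 8591 lower in depleted testes, instead of 7273 and 6833. Without depleted replicates 1 and 4, edgeR called 126 members higher than control, as it did 6721 of all 21561 genes in that fit. Of the 200, 111 still passed the thresholds, not counting the cut to the largest ratios.

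The genes just inside and outside the rule had similar values. The last gene taken but one, antxr1c, had a log2 ratio of depleted to control of 2.33, and ahsg1, the first left out, had 2.32. At the cap on recovery, the cathepsin gene ctss2.2 was inside at 1.49 and serinc2 was outside at 1.51. At the depleted minimum, MRC2 was inside at 10 CPM and si:ch211-239d6.4 outside at 9.90 CPM.

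The members did not share a single profile across the 5 depleted testes. Only 12 members stood at 4-fold or more over the control mean in all 5 depleted libraries, and 67 did so in 4, 39 in 3, 77 in 2 and 5 in 1. By library, 174 members reached 4-fold in depleted replicate 1 and 179 in replicate 4, but 43 in replicate 2, 102 in replicate 3 and 106 in replicate 5. For 96 of the 200 the highest level was in replicate 4, and for 89 a single library held at least 50% of the summed depleted level. Every depleted library was above every control library for 92 members, 91 of them among the 194 tested, where 18.6% of all tested genes showed this. Every recovering library was below every depleted library for 73 members, 72 of them tested, against 7.76% of all tested genes. The members were chosen on these same libraries, so the excess over all tested genes is at least partly set by the choice. For 90 members, at least 1 depleted library lay below the control mean.

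**Figure D1:**
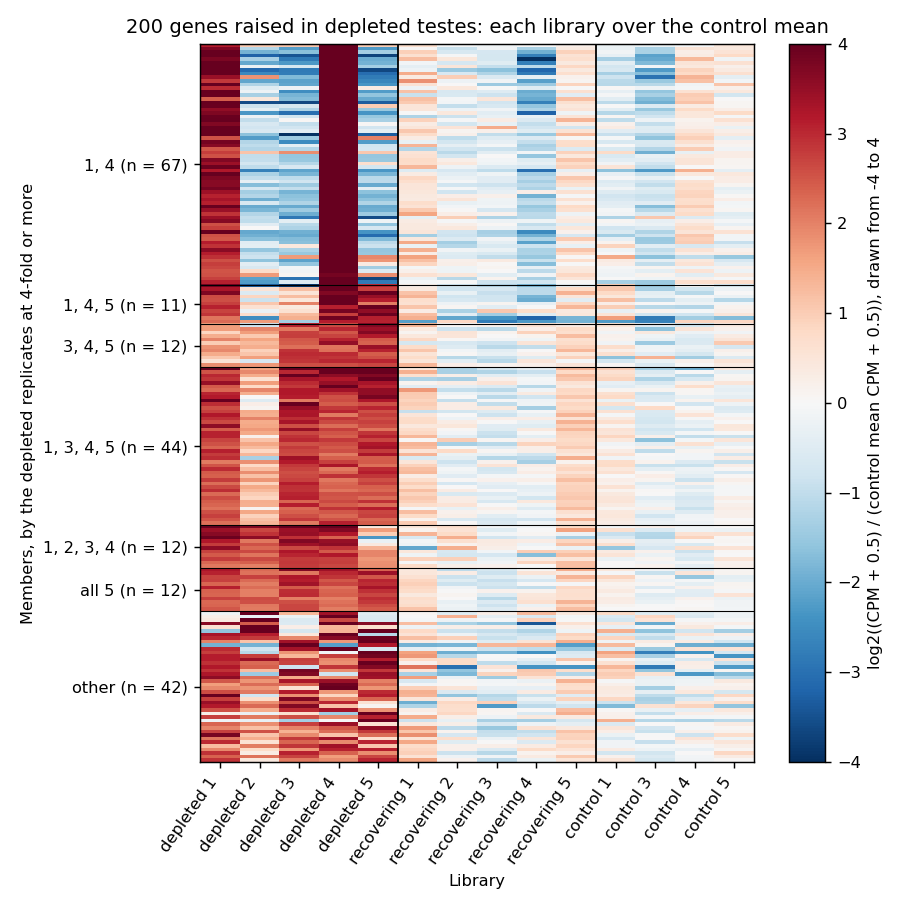
Each row is 1 of the 200 members and each column 1 library, coloured by the log2 ratio of its level to the control mean, both with 0.5 CPM added and drawn from -4 to 4. Rows are grouped by the depleted replicates in which they reached 4-fold. The 67 members of the top block are red in depleted replicates 1 and 4 and mostly blue or pale in depleted replicates 2, 3 and 5.

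The spread over the depleted libraries can be set beside that of the 1172 genes that met the same level and 4-fold conditions but stayed above the cap in recovering testes. All of these were kept, while the members were the 200 of 337 with the largest ratio of depleted to control, so the sets were not cut alike. Of the 1172, 300 (25.6%) reached 4-fold in all 5 depleted libraries, as did 6.0% of the members, and 10.6% reached it in 2 libraries, as did 38.5% of the members. A single library held at least 50% of the depleted sum for 44.5% of the members and 11.3% of the 1172 genes. Every depleted library was above every control library for 46.0% of the members, but for 1002 (85.5%) of the 1172. Every recovering library was below every depleted library for 36.5% of the members and for 350 (29.9%) of the 1172. Recovering and control ranges overlapped for all 200 members and for 845 (72.1%) of the 1172. These shares describe genes chosen on the same libraries, and their difference was not tested.

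**Figure D2:**
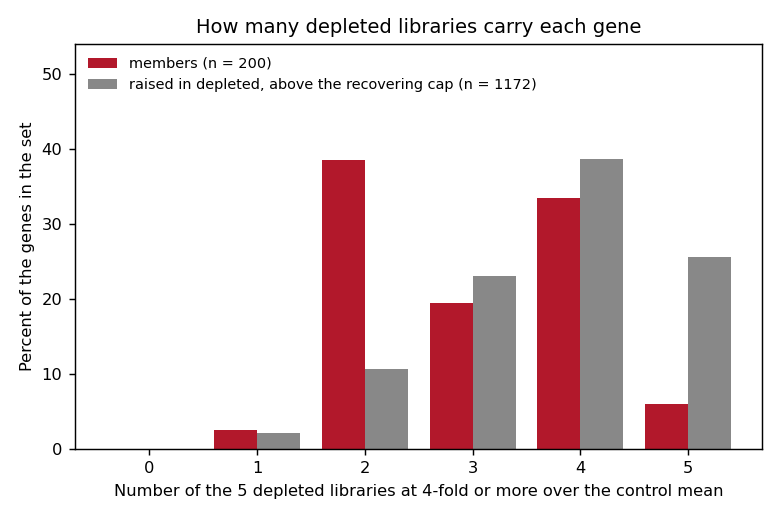
The bars give the percent of genes that reached 4-fold over the control mean in 0 to 5 of the depleted libraries, for the 200 members and for the 1172 genes raised in depleted testes that stayed above the recovering cap. The members have their tallest bars at 2 and 4 libraries, with 38.5% and 33.5%, and the 1172 genes at 4, with 38.7%. The members were cut to the largest ratios of depleted to control, and the 1172 genes were not.

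The largest block held 67 members that reached 4-fold in depleted replicates 1 and 4 and in no other depleted library. Their summed level was 3953 and 14099 CPM in these libraries and 153, 103 and 149 CPM in depleted replicates 2, 3 and 5. It was 425, 261, 173, 86.3 and 385 CPM in recovering replicates 1 to 5 and 184, 115, 434 and 293 CPM in control replicates 1, 3, 4 and 5. The median gene of the block stood at 11.6 and 45.2 times its control mean in depleted replicates 1 and 4, but at 0.496, 0.347 and 0.347 times in replicates 2, 3 and 5. Without depleted replicates 1 and 4, the median log2 ratio of depleted to control in the block was -1.25 instead of 3.54, and 58 of the 67 genes were below the control mean.

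The gene of this block with the highest depleted mean was fabp10a, which encodes the fatty acid binding protein of the zebrafish liver. Its level was 331, 9.37, 2.94, 2015 and 5.67 CPM in depleted replicates 1 to 5, a mean of 473 ± 874 CPM (SD, n = 5). It was 56.8, 32.9, 14.6, 1.07 and 38.9 CPM in recovering testes and 9.35, 5.45, 60.0 and 21.6 CPM in control testes (24.1 ± 24.9 CPM, SD, n = 4). The ranges overlapped: depleted replicates 1 and 4 lay above every other library, and the other 3 depleted libraries lay within the control range or below it. The ratio of means was 19.2, and the log2 ratio of 4.27 became -1.92 without depleted replicates 1 and 4.

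The hemopexin gene hpxa, whose protein carries free heme in plasma, had 500, 0.601, 0.436, 654 and 0.298 CPM in depleted testes. It had 15.6, 9.42, 5.79, 1.07 and 15.0 CPM in recovering and 7.75, 1.86, 12.4 and 17.4 CPM in control testes. Again depleted replicates 1 and 4 were the highest of all 14 libraries, and here the other 3 depleted libraries were the lowest. The ceruloplasmin gene CP, for the copper carrier of plasma, had 166, 3.84, 5.34, 654 and 4.97 CPM in depleted, 7.58 to 25.2 CPM in recovering and 9.05 to 26.6 CPM in control testes. The same block held genes for the vitamin D carrier (GC), angiotensinogen (agt), urate oxidase (uox), tryptophan dioxygenase (tdo2b) and the carrier of sex steroids in plasma (shbg). For shbg the depleted levels were 13.7, 0.360, 0, 71.0 and 0.199 CPM, against 0.427 to 5.31 CPM in recovering and 0.812 to 2.78 CPM in control testes. Without depleted replicates 1 and 4 the log2 ratio was -0.44 for GC, -1.63 for agt, -2.26 for uox, -0.18 for tdo2b and -1.49 for shbg.

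Several clotting genes had this profile, and others did not. Of the 17 identifiers on a list of clotting factors and their inhibitors, drawn up after the values had been seen, 9 were members. The genes of the list that were not members summed to 836, 489, 528, 1512 and 525 CPM in depleted replicates 1 to 5. Their sums were 135 to 312 CPM in recovering and 122 to 138 CPM in control testes. The sum was thus above control in all 5 depleted libraries, but in replicates 2, 3 and 5 most of it was 1 gene, F10, given below. In edgeR all 6 tested genes among them rose in depleted testes over control, and 3 of 6 did without depleted replicates 1 and 4. Fibrinogen, the protein that forms the clot, is built from 3 chains, and the genes of the alpha and beta chains, fga and FGB, were members. The level of fga was 343, 0.841, 0.762, 851 and 1.09 CPM in depleted, 32.3, 14.2, 8.95, 1.92 and 24.3 CPM in recovering and 7.18, 3.71, 34.2 and 16.3 CPM in control testes. For FGB it was 281, 3.72, 0.327, 594 and 0.795 CPM in depleted, 4.16 to 31.3 CPM in recovering and 5.34 to 22.2 CPM in control testes. The gene of the gamma chain, FGG, had 183, 0.961, 1.09, 479 and 1.19 CPM in depleted testes and was no member, as its recovering level of 0 to 17.3 CPM was above the cap relative to 0.580 to 9.80 CPM in control testes.

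Thrombin, which cuts fibrinogen, comes from prothrombin, encoded by f2. The level of f2 was 99.2, 2.76, 3.70, 266 and 3.48 CPM in depleted, 3.63 to 15.8 CPM in recovering and 2.79 to 8.89 CPM in control testes. The gene of its inhibitor antithrombin, SERPINC1, had 75.8, 2.40, 2.83, 219 and 2.98 CPM in depleted testes, against 2.77 to 9.12 CPM in recovering and 2.67 to 5.81 CPM in control testes. PLG, whose product plasminogen dissolves clots, had 144, 3.12, 11.3, 279 and 1.89 CPM in depleted, 9.03 to 16.3 CPM in recovering and 5.69 to 27.3 CPM in control testes. The named procoagulant, anticoagulant and clot-dissolving members were thus high in the same pair of testes and within or below the control range in depleted replicates 2, 3 and 5. On the separate list of coagulation and fibrinolysis, all 5 tested genes that were not members rose in depleted testes over control, and 4 did without depleted replicates 1 and 4. One of them, F10, for the factor that activates prothrombin, had 423 to 522 CPM in all 5 depleted libraries, 84.0 to 224 CPM in recovering and 51.2 to 65.9 CPM in control testes (log2 fold change 3.34, edgeR adjusted p = 2.6e-05, higher in 5 of 5 depleted libraries). Its recovering level was above that of control (edgeR adjusted p = 0.0322), and it was not a member. The rule uses the ratio of means and no p-value.

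Of the 14 identifiers on a list of lipid transport genes, drawn up after the values had been seen, 5 were members. The gene apoa1a encodes the main protein of high-density lipoprotein and had 129, 40.4, 2.94, 869 and 1.19 CPM in depleted testes. It had 14.7, 22.6, 7.47, 8.75 and 12.8 CPM in recovering and 6.16, 1.04, 29.5 and 8.51 CPM in control testes. Here depleted replicate 2 was also above the control range, while replicates 3 and 5 lay within it, and the log2 ratio of depleted to control was 0.38 without depleted replicates 1 and 4 instead of 4.15. The related apolipoprotein gene apoa4b.1 had 10.5, 2.28, 0.109, 145 and 0 CPM in depleted, 0 to 4.16 CPM in recovering and 0.116 to 3.47 CPM in control testes. The other members were apobb.2, one of the copies of the apolipoprotein B gene, the hepatic lipase gene LIPC and CETP, for a protein that moves lipid between lipoproteins. Each of these had its highest level in depleted replicate 4 and its next highest in replicate 1. Without both libraries the log2 ratio was -0.96 for apobb.2 and -0.63 for LIPC and for CETP, instead of 3.08, 3.85 and 2.63. The genes of the list that were not members summed to 5895, 3142, 4551, 10656 and 592 CPM in depleted replicates 1 to 5. Their sums were 257 to 3063 CPM in recovering and 147 to 490 CPM in control testes. In edgeR 5 of the 7 tested among them rose in depleted testes over control. Without depleted replicates 1 and 4, 2 rose and 2 fell. The log2 fold change was then 4.29 for apoeb (edgeR adjusted p = 0.00231) and -3.05 for apoa2 (edgeR adjusted p = 0.0374).

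Breakdown of tyrosine is a liver pathway, and the genes of its first 3 steps were members. TAT starts the pathway, hpda encodes the next enzyme and HGD the one after that. TAT had 45.2, 1.68, 1.09, 186 and 0.497 CPM in depleted, 0.747 to 4.09 CPM in recovering and 1.03 to 2.95 CPM in control testes. The level of hpda was 112, 0.480, 0.327, 405 and 0.199 CPM in depleted testes, against 0.320 to 15.6 CPM in recovering and 1.28 to 9.63 CPM in control testes. Both followed the profile of depleted replicates 1 and 4. HGD was less narrow, at 40.6, 12.5, 23.7, 170 and 24.7 CPM in depleted, 4.37 to 10.3 CPM in recovering and 4.86 to 6.84 CPM in control testes, with every depleted library above every recovering and control library.

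The mitochondrial uncoupling protein gene UCP1 had the second highest single value among the members named here. It had 300, 1.56, 0.871, 1301 and 166 CPM in depleted, 5.44 to 23.6 CPM in recovering and 6.73 to 40.8 CPM in control testes. Depleted replicates 2 and 3 were below every control, so the groups overlapped, and the log2 ratio of 4.11 was 1.47 without depleted replicates 1 and 4.

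The 19 liver marker genes, 7 of them members, moved with this block, and their summed level is the one given above for each group. Without the 7 members the list summed to 4862, 403, 83.3, 13614 and 429 CPM in depleted replicates 1 to 5, to 53.2 to 1311 CPM in recovering and to 39.2 to 268 CPM in control testes. No marker on this list was at 0 in every library. Of the 12 tested liver markers that were not members, 7 rose and 1, the egg yolk precursor gene vtg1, fell in depleted testes over control. Without depleted replicates 1 and 4, 0 of the 12 rose and 3 fell. The antitrypsin-like gene serpina1 had 125, 0.601, 0.545, 727 and 0.795 CPM in depleted, 0 to 11.3 CPM in recovering and 0.348 to 5.03 CPM in control testes (log2 fold change 6.45, edgeR adjusted p = 0.0177, higher than every control in 2 of 5 depleted libraries), and its log2 fold change was -1.52 without those libraries (edgeR adjusted p = 0.295). The part of liver RNA in the levels of the 67 members was not tested.

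Low levels of the same genes also varied together among recovering and control testes. Of the 67 members, 55 (82.1%) had their lowest recovering value in replicate 4, as did 30.6% of all tested genes. Their highest recovering value was in replicate 5 for 32 and in replicate 1 for 29. Of the 67, 50 (74.6%) had their lowest control value in replicate 3, as did 28.5% of all tested genes. The highest control value was in replicate 4 for 46 (68.7%) of them, as for 22.5% of all tested genes. Some of the lowest values rest on so few counts that they are not told from 0. In recovering replicate 4 cbln8 had a count of 1 and apoa4b.1 of 0, and in control replicate 3 apoa4b.1 had 1. The liver markers that were not members were likewise lowest in recovering replicate 4 and control replicate 3, at 53.2 and 39.2 CPM in sum, with the highest sums in recovering replicate 1 and control replicate 4, at 1311 and 268 CPM.

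Complement, the set of plasma proteins that tags and perforates foreign cells, gave 9 members on a list of the cascade drawn up after the values had been seen. They split by profile. The copies c3a.2 and c3a.3 of the central component C3, the factor B gene cfb and the genes c5, c8a, c8g and c9 of the late steps belonged to the block of 67. The genes c6.1 and c7a, whose products join C5 before C8 and C9 in the pore, were high across the depleted testes.

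**Figure D3:**
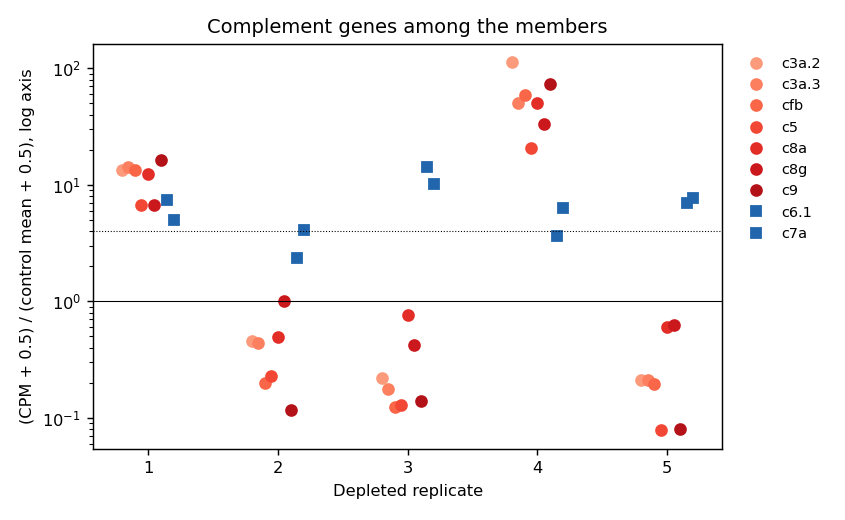
Each point is the level of 1 of the 9 complement members in 1 of the 5 depleted libraries, as a ratio to the control mean with 0.5 CPM added to both, on a log axis, with lines at 1 and 4. Circles mark the 7 genes that pass 4 in depleted replicates 1 and 4 and in no other library. Squares mark c6.1 and c7a, which lie above 1 in all 5 libraries.

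The pore-forming gene c9 had 121, 0.360, 0.545, 546 and 0.0994 CPM in depleted, 5.89, 2.18, 1.88, 0.320 and 9.27 CPM in recovering and 4.22, 1.04, 13.4 and 9.07 CPM in control testes. Factor B, which amplifies C3 cleavage, had 88.1, 0.841, 0.327, 393 and 0.795 CPM in depleted, 0.213 to 8.44 CPM in recovering and 2.51 to 10.8 CPM in control testes. For both genes the depleted libraries fell on both sides of the control range. By contrast, c7a had 286, 237, 587, 363 and 445 CPM in depleted testes (383 ± 138 CPM, SD, n = 5), all above 110, 31.1, 35, 56.4 and 55.3 CPM in recovering and 63.1, 60.7, 43.2 and 61.4 CPM in control testes. Its neighbour in the cascade, c6.1, had 152, 48.0, 291, 74.0 and 143 CPM in depleted, 29.4, 6.40, 22.4, 42.4 and 32.5 CPM in recovering and 36.9, 6.38, 15.1 and 21.2 CPM in control testes, with every depleted library above all others.

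The copy number of C3 genes makes single levels uncertain, since reads shared by near-identical copies may have been divided or dropped. On the fixed list of complement and acute phase genes, 3 of the 9 tested genes that were not members rose in depleted testes over control, where 34.2% of all tested genes rose, and 1 fell. On the list of the cascade 8 of 16 such genes rose and 1 fell. Without depleted replicates 1 and 4, 2 rose and 4 fell on the fixed list, and 7 rose and 5 fell on that of the cascade. Those that fell included 2 further C3 copies, c3b.1 and c3b.2 (log2 fold changes -3.85 and -2.91, edgeR adjusted p = 0.00257 and 0.00278). With all libraries, 2 of the 3 rising genes of the fixed list were c4b, for a copy of component C4, and cfd, for the protease that activates factor B. The level of c4b was 82.2 to 455 CPM in depleted, 14.6 to 85.3 CPM in recovering and 7.43 to 30.4 CPM in control testes. For cfd it was 156 to 336 CPM in depleted, 18.8 to 133 CPM in recovering and 8.76 to 23.7 CPM in control testes. Their edgeR adjusted p-values were 0.000295 and 0.000126, and both were above every control in 5 of 5 depleted libraries. The third was a further C3 copy, c3a.1, at 647, 14.2, 103, 1454 and 47.9 CPM in depleted, 9.50 to 210 CPM in recovering and 19.5 to 46.2 CPM in control testes (edgeR adjusted p = 0.0163, above every control in 4 of 5, and adjusted p = 0.387 without depleted replicates 1 and 4).

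A few members owed their place to a single library. FABP6, the bile acid binding protein of the lower gut, had the largest ratio of all members, 52.2, with 0.123, 171, 1.2, 6.60 and 0 CPM in depleted testes. It had at most 1.17 CPM in recovering and at most 0.684 CPM in control testes, and 95.6% of its depleted sum came from replicate 2. The keratin gene krt92 had 4.19, 349, 1.96, 22.2 and 1.89 CPM in depleted, 2.71 to 6.51 CPM in recovering and 1.71 to 4.87 CPM in control testes. Without depleted replicate 2 the log2 ratio to control was 1.83 for FABP6 and 1.14 for krt92, instead of 5.71 and 4.38. The pancreas list was also highest in this library, as given above, and none of its 12 genes was a member. A list of 7 intestinal genes summed to 203 CPM there and to 193 CPM in depleted replicate 4, and to at most 25.5 CPM in the other depleted, 14.5 CPM in recovering and 10.3 CPM in control libraries. Without its members FABP6 and apoa4b.1 the sums were 29.1 and 41.1 CPM. The part of gut or pancreas RNA in these levels was not tested.

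The ribonuclease gene rnasel2 had 155 CPM in depleted replicate 4 and at most 0.369 CPM in the other depleted, 1.43 CPM in recovering and 0.812 CPM in control libraries. Its log2 ratio of depleted to control was 5.42, and -0.19 without depleted replicate 4. The calcium pump gene atp2a1l, related to the pump of fast muscle, had 48.2 CPM in depleted replicate 5, against at most 2.40 CPM in the other depleted, 4.63 CPM in recovering and 1.74 CPM in control libraries. Without that library its log2 ratio was -0.01. A list of 11 skeletal muscle genes, none a member, summed to 509 CPM in depleted replicate 5, to 19.1 to 63.2 CPM in the other depleted, to 116 to 245 CPM in recovering and to 179 to 224 CPM in control testes. The creatine kinase gene ckmb, a defining muscle marker, had 170 CPM in that library and at most 8.72 CPM elsewhere. The list did not move as one. In edgeR 4 of its 10 tested genes rose and 2 fell in depleted testes over control, where 34.2% of all tested genes rose. Without depleted replicates 1 and 4, 7 rose and 2, atp2a1 and myhz1.1, fell (log2 fold changes -2.93 and -1.91, edgeR adjusted p = 0.00915 and 0.0226). The part of muscle RNA was not tested.

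The immune members named here were chosen after their values were seen, and their profiles across the depleted testes differed. The class II antigen-presentation genes mhc2daa and mhc2dab load peptides on the surface of macrophages, dendritic cells and B cells. The level of mhc2dab was 366, 283, 103, 278 and 604 CPM in depleted, 137, 18.5, 40.2, 41.1 and 28.7 CPM in recovering and 93.7, 16.2, 45.7 and 7.61 CPM in control testes. Every depleted library was above every control, and recovering replicate 1 was above depleted replicate 3. For mhc2daa it was 340, 194, 20.3, 265 and 470 CPM in depleted, 162, 4.14, 53.1, 6.62 and 6.68 CPM in recovering and 90.7, 4.64, 42.3 and 7.05 CPM in control testes, so depleted replicate 3 lay within the range of both other groups. Copies of class II genes differ between fish and resemble each other, and reads may have been assigned unevenly among them.

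The class I gene mhc1zda had 54.3, 28.8, 27.8, 51.9 and 68.4 CPM in depleted testes (46.2 ± 17.6 CPM, SD, n = 5). It had 8.31, 7.46, 3.08, 8.86 and 7.77 CPM in recovering and 5.82, 3.02, 8.59 and 6.56 CPM in control testes, with no overlap of the depleted libraries with either group. The cathepsin gene ctss2.2, for a protease that prepares class II molecules, had 203, 129, 182, 115 and 256 CPM in depleted, 85.0, 35.6, 25.8, 39.1 and 38.7 CPM in recovering and 34.3, 28.7, 28.5 and 28.2 CPM in control testes. These too were separate, although recovering replicate 1 stood well above the other recovering libraries.

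Several receptor and signalling genes of immune cells, among them cd40, csf1rb, SYK and il2rga, belonged to a set of 44 members that reached 4-fold in every depleted library except replicate 2. The activating receptor gene cd40 had 56.0, 18.4, 42.0, 37.4 and 47.9 CPM in depleted, 11.2, 5.65, 3.16, 6.08 and 11.7 CPM in recovering and 8.78, 3.83, 5.81 and 6.06 CPM in control testes. A copy of the colony-stimulating factor receptor of macrophages, csf1rb, had 15.1, 1.92, 31.4, 10.2 and 11.6 CPM in depleted, 0.519 to 3.58 CPM in recovering and 0.694 to 2.62 CPM in control testes. All depleted libraries were above the others for cd40, while depleted replicate 2 was within the control range for csf1rb.

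The kinase gene SYK, which carries signals from antigen and Fc receptors, had 29.7, 3.60, 26.0, 18.3 and 29.4 CPM in depleted, 1.36 to 8.43 CPM in recovering and 1.30 to 5.93 CPM in control testes. The shared cytokine receptor chain gene il2rga had 20.1, 3.72, 14.8, 13.7 and 16.3 CPM in depleted, 2.04 to 3.69 CPM in recovering and 0.696 to 2.51 CPM in control testes. The adaptor gene blnk of B cell receptor signalling had 22.9, 3.84, 14.3, 10.3 and 23.6 CPM in depleted, 1.49 to 7.97 CPM in recovering and 1.04 to 3.56 CPM in control testes. Depleted replicate 2 was the lowest depleted library for all of csf1rb, SYK, il2rga, blnk and cd40. Summed over the 44 members, the level was 1754, 635, 1925, 1756 and 1874 CPM in depleted replicates 1 to 5, 182 to 473 CPM in recovering and 196 to 314 CPM in control testes.

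The chemokine gene cxcl18b, which in zebrafish draws in neutrophils, had 38.0, 46.5, 51.8, 97.9 and 128 CPM in depleted, 5.23 to 19.9 CPM in recovering and 3.37 to 16.7 CPM in control testes. The transcription factor gene CEBPB, induced in inflammation in mammals, had 85.2, 50.0, 87.1, 121 and 259 CPM in depleted, 7.27 to 72.5 CPM in recovering and 12.6 to 30.7 CPM in control testes. Both had their highest level in depleted replicate 5. So did a peroxidase gene spelled EPX in the gene table, at 48.4, 2.88, 24.4, 6.17 and 202 CPM in depleted, 0.854 to 21.4 CPM in recovering and 0.580 to 21.4 CPM in control testes. The symbol does not give the cell type that expresses this gene, which was not tested. For EPX the groups overlapped, and replicate 1 of both the recovering and the control group held the 21.4 CPM.

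Marker lists of immune cells were set beside these genes. The 15 macrophage genes summed to 2855, 3157, 2561, 2147 and 3844 CPM in depleted replicates 1 to 5, 214 to 1132 CPM in recovering and 336 to 689 CPM in control testes, and 2022 to 3577, 188 to 1044 and 307 to 652 CPM in the same groups without the members csf1rb and ctss2.2. Depleted replicate 2 was the second highest of the group for this list, while it was the lowest for csf1rb, SYK, il2rga, blnk and cd40. The marker c1qc was at 0 in all but 1 recovering and 1 control library. All 11 tested macrophage markers that were not members rose in depleted testes over control in edgeR, and 10 did without depleted replicates 1 and 4. Several of these identifiers share the symbol MFAP4, and others are related genes, c1qa with c1qb and cd74a with cd74b. They are thus not 11 separate kinds of marker. The 10 neutrophil genes summed to 479 to 1483 CPM in depleted, 552 to 815 CPM in recovering and 593 to 863 CPM in control testes, and 3 of 9 tested rose, where 34.2% of all tested genes rose. The neutrophil peroxidase gene mpx, planned for this list, matched no symbol in the gene table and is not in the sum. The 12 genes of T and NK cells summed to 80.2 to 124 CPM in depleted, 95.5 to 167 CPM in recovering and 98.3 to 132 CPM in control testes, with 7 of 11 tested higher and 2 lower in depleted testes. Without its member blnk, the B cell list summed to 309, 172, 93.0, 60.0 and 246 CPM in depleted replicates 1 to 5. Its sums were 16.1 to 210 CPM in recovering and 9.98 to 62.9 CPM in control testes. With blnk, every depleted sum was above every control sum. Of its 7 tested genes that were not members, 6 rose in depleted testes over control in edgeR. Without depleted replicates 1 and 4, 6 also rose. The depleted ranges of the neutrophil list, the T and NK cell list and the B cell list without blnk overlapped those of the other groups. That of the macrophage list did not. The complement initiator gene c1qb had 107 to 277 CPM in depleted, 9.99 to 86.7 CPM in recovering and 5.51 to 14.7 CPM in control testes (log2 fold change 4.51, adjusted p = 0.000112, higher in 5 of 5). The gene havcr1 had 26.7 to 49.6 CPM in depleted, 2.24 to 30.4 CPM in recovering and 1.30 to 3.42 CPM in control testes (log2 fold change 4.67, edgeR adjusted p = 0.000114, higher in 5 of 5). The part of macrophage or B cell number in the immune members was not tested.

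Both gonadotropin receptor genes were members. FSHR, through which FSH acts on Sertoli cells and, in zebrafish, also on Leydig cells, had 162, 76.3, 232, 197 and 14.1 CPM in depleted testes (136 ± 89.3 CPM, SD, n = 5). It had 15.9, 27.1, 22.1, 21.1 and 31.3 CPM in recovering and 20.4, 13.2, 17.1 and 18.2 CPM in control testes (17.2 ± 3.01 CPM, SD, n = 4). Depleted replicates 1 to 4 were above every other library, and replicate 5 was within the control range. The LH receptor gene lhcgr had 26.1, 16.0, 54.1, 32.8 and 21.1 CPM in depleted (30.0 ± 14.8 CPM, SD, n = 5), 7.50, 4.52, 3.04, 5.98 and 11.7 CPM in recovering and 6.84, 2.32, 2.34 and 6.13 CPM in control testes. All depleted libraries were above all others, replicate 5 included.

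**Figure D4:**
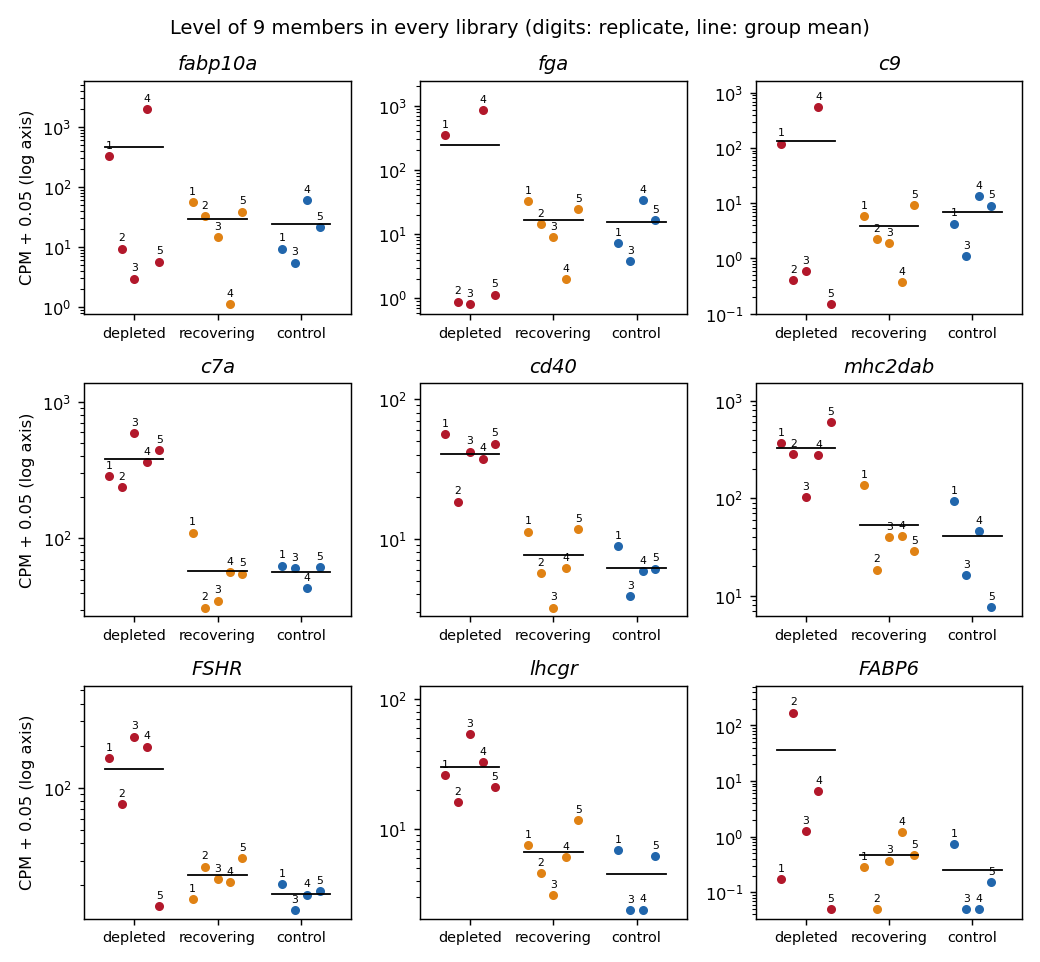
Each panel gives the level of 1 of 9 members in every library, in CPM with 0.05 added for the log axis, with replicate numbers beside the points and a line at the group mean. For fabp10a, fga and c9 the depleted points lie on both sides of the control points, for c7a, cd40, mhc2dab and lhcgr they lie above them, for FSHR replicate 5 falls back to the control level, and for FABP6 replicate 2 stands alone at 171 CPM.

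The growth hormone receptor gene ghrb had 113, 69.9, 183, 279 and 41.1 CPM in depleted, 37.6, 41.3, 21.6, 36.0 and 48.5 CPM in recovering and 15.7, 25.8, 37.3 and 22.7 CPM in control testes. Its depleted replicate 5 was above every control and below recovering replicates 2 and 5. ANO5, of the anoctamin family of membrane proteins, had 180, 152, 273, 312 and 34 CPM in depleted, 22.3, 29.0, 32.1, 22.1 and 58.5 CPM in recovering and 41.3, 18.6, 16.7 and 25.8 CPM in control testes. Like FSHR it was high in depleted replicates 1 to 4 and within the control range in replicate 5. FSHR and ANO5 belonged to 12 members that reached 4-fold in every depleted library except replicate 5, whose summed level was 828, 622, 1054, 1015 and 285 CPM in depleted replicates 1 to 5, 116 to 233 CPM in recovering and 93.9 to 130 CPM in control testes.

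Marker lists of the somatic cells of the testis followed the receptor genes in part. A list of 10 Leydig cell genes summed to 5319, 12122, 5439, 8862 and 816 CPM in depleted replicates 1 to 5, to 2929 to 4170 CPM in recovering and to 834 to 1606 CPM in control testes. The 6 Sertoli cell genes summed to 2145, 3741, 3641, 3903 and 2034 CPM in depleted, 1646 to 3243 CPM in recovering and 1507 to 2085 CPM in control testes. Neither list had a marker at 0 in every library. Depleted replicate 5 was thus the lowest depleted library for both lists, below every control for the Leydig list and within the control range for the Sertoli list, while lhcgr was above every control there. The Leydig sum was highest in depleted replicate 2, where lhcgr was lowest, and was above every control in all 5 recovering testes, where lhcgr overlapped the control range. The Sertoli sum in depleted replicate 1 was 2145 CPM against at most 2085 CPM in control testes, while FSHR was far above every control in that library. Of the 9 tested Leydig genes other than lhcgr, 8 rose in depleted testes over control, and of the 5 Sertoli genes other than FSHR, 3 rose, where 34.2% of all tested genes rose. The steroid-making gene hsd3b1 had 210, 461, 351, 510 and 41.7 CPM in depleted, 78.6 to 209 CPM in recovering and 20.8 to 37.7 CPM in control testes (log2 fold change 3.98, edgeR adjusted p = 0.00013, higher in 5 of 5). The growth factor gene igf3, which responds to FSH in zebrafish Sertoli cells, had 16.6, 35.2, 45.1, 127 and 1.99 CPM in depleted, 13.8 to 51.2 CPM in recovering and 1.97 to 10.1 CPM in control testes (log2 fold change 3.23, edgeR adjusted p = 0.00613, higher in 4 of 5). The part of cell number in the receptor levels was not tested.

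The 12 members that reached 4-fold in all 5 depleted libraries summed to 1363, 1061, 1867, 1318 and 1655 CPM in depleted, 396, 187, 146, 249 and 396 CPM in recovering and 268, 207, 202 and 246 CPM in control testes. Beside c7a and mhc1zda they included ANOS1, for the secreted matrix protein anosmin, with 47.8, 49.4, 69.5, 53.6 and 41.0 CPM in depleted, 10.9, 3.62, 4.83, 5.87 and 18.7 CPM in recovering and 13.2, 7.31, 2.08 and 5.20 CPM in control testes. They also included a pair of genes of the lysosome and its enzymes. The level of scarb2c, from a family of lysosomal membrane proteins, was 55.6, 40.1, 73.7, 46.7 and 69.7 CPM in depleted, 3.99 to 15.0 CPM in recovering and 6.45 to 11.1 CPM in control testes. DPP7, for a dipeptide-cutting protease, had 150, 112, 172, 111 and 147 CPM in depleted, 18.1 to 62.4 CPM in recovering and 24.5 to 27.9 CPM in control testes. In all of these the lowest depleted value was above the highest of the other libraries.

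Within the set of 44, vmo1a, related to a protein of the egg's outer layer, had 54.7, 5.41, 48.6, 38.2 and 47.0 CPM in depleted, 0.301 to 4.43 CPM in recovering and 0 to 3.42 CPM in control testes. The cytochrome P450 gene cyp2ad3 had 55.4 to 170 CPM in depleted, 6.35 to 47.6 CPM in recovering and 10.8 to 15.3 CPM in control testes. Both were above every recovering and control library in all 5 depleted libraries, with the smallest level in depleted replicate 2.

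The return to the control level was uneven among recovering testes as well. Recovering replicates 1 and 5 were above 1.5 times the control mean for 105 and 114 of the 200 members, against 20, 5 and 14 members in recovering replicates 2, 3 and 4. The median member stood at 1.54, 0.888, 0.741, 0.722 and 1.57 times its control mean in recovering replicates 1 to 5. At ghrb, FSHR, lhcgr, ANOS1 and DPP7 the highest recovering value was in replicate 5. At mhc2daa, mhc2dab, ctss2.2, SYK and blnk it was in replicate 1.

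To see how far a choice made on some libraries held in another, the rule was applied without 1 library at a time, and the left-out library was then read. Of the 200 genes chosen without depleted replicate 1, 82.0% were at least 4-fold over the control mean in that library, where 9.13% of all tested genes were. The shares were 16.0% in replicate 2 (3.92% of all tested genes), 38.0% in replicate 3 (10.8%), 68.0% in replicate 4 (9.81%) and 36.5% in replicate 5 (9.95%). Each was above that of all tested genes, and the libraries differed widely, with replicates 1 and 4 the highest. The control mean under these ratios, and under those of the recovering libraries below, was also used to choose the genes. Part of the excess over all tested genes is thus set by the choice, and the shares are a description.

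On the recovering side the shares differed between libraries. A left-out recovering library was at or below 1.5 times the control mean for 33.0% of the chosen genes in replicate 1, 86.5% in replicate 2, 94.0% in replicate 3, 81.5% in replicate 4 and 32.0% in replicate 5. Among all tested genes 80.7%, 87.8%, 92.8%, 86.5% and 82.1% met that condition in the same libraries. So in recovering replicates 1 and 5 the genes chosen without them were more often above the cap than genes at large, and in replicates 2, 3 and 4 the shares were closer to those of all genes. Without replicate 1 or 5, 481 and 472 genes passed the thresholds instead of 337, and 127 and 139 of the 200 chosen were members. Genes that only the left-out library had kept above the cap could thus enter. The low shares in these libraries are therefore partly set by the choice. With a control library left out, the depleted mean was at least 4-fold over it for 80.5%, 99.0%, 94.5% and 90.5% of the chosen genes in control replicates 1, 3, 4 and 5, against 8.62% to 12.0% of all tested genes. That depleted mean had itself chosen the genes as high, so this excess too is partly set by the choice.

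**Figure D5:**
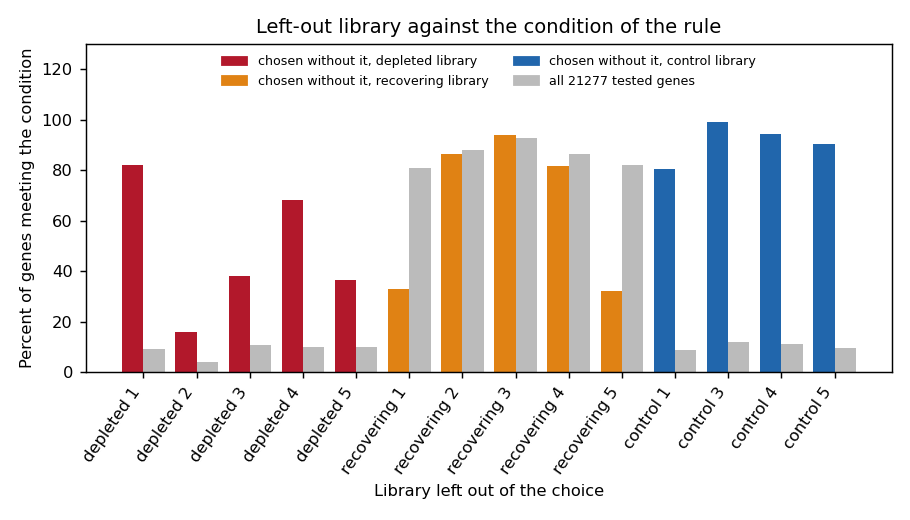
For each library left out of the choice, the coloured bar gives the percent of the 200 genes chosen without it that met the condition of the rule in that library, and the grey bar the percent of all 21277 tested genes. Depleted replicates 1 and 4 have bars of 82.0% and 68.0% and the other depleted libraries of at most 38.0%, and recovering replicates 1 and 5 fall to 33.0% and 32.0%, below their grey bars. The means that each left-out library is compared with were also used to choose the genes. Leaving out a recovering library can also let in genes that it alone had kept above the cap.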

How the data were processed

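The authors deposited 1 table of read counts per library, with a whole-number count for each Ensembl gene identifier. Per the submitters' processing notes, FastQC 0.10.1, TopHat2 2.0.5, SAMtools 0.1.18, HTSeq and DESeq were used with the Zv9 genome; whether counting used strand, and how reads shared by paralogs were treated, are not given in the sources used here, so levels of near-identical copies are uncertain. Of the 33752 identifiers, 21948 (65.0%) matched a symbol; the part of the rule for named genes on neighbouring genes was not applied, since no annotation of that build was used.

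CPM, group means, ratios and counts of libraries past a ratio were computed from these counts. edgeR 4.0.16 (R 4.3.3) fitted all 14 libraries by group, with filterByExpr, TMM factors, quasi-likelihood F tests and Benjamini-Hochberg adjustment over 21277 genes, called at 0.05; it was tested on simulated data. DESeq2 1.42.0 and limma 3.58.1 (voom with quality weights) were alternatives. Groups came from sample titles. Some members are not reported here by name. The members, the marker lists and the pathway lists were chosen with earlier results of these data known. The lists of the complement cascade, clotting genes, lipid transport, amino acid breakdown, immune receptors and hormone receptors, and many genes named from them, were chosen after their values were seen; other genes were named for rank, level, spread, place at a threshold or place on the lists fixed for this work. The labels call the libraries biological replicates, and p-values measure the spread between them.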

Additional observations from a re-analysis of the deposited data

Results flagged for a closer look

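Over the 49 members followed by name, the values of each group were checked for a library that stood apart, by its gap to the nearest other value as a share of the group's range (above 0.829 with 4 libraries, 0.71 with 5). Of 147 groups of values 35 had such a library, and 16 of the 35 were depleted replicate 4. Chance flags about 5% of groups of independent values, but these members were named partly for their level and spread and vary together, so their number is a description and no test.

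In depleted replicate 4, levels far above the next depleted library were found for fabp10a (2015 CPM, next 331), apoa1a (869, next 129), apoa4b.1 (145, next 10.5), CP (654, next 166) and shbg (71.0, next 13.7), which encode carriers of lipid, copper and sex steroids. The same library stood apart for the amino acid breakdown genes TAT (186 CPM, next 45.2), hpda (405, next 112) and HGD (170, next 40.6). It did so for the complement genes c3a.2 (481 CPM, next 57.0), c3a.3 (236, next 65.7), cfb (393, next 88.1), c8a (75.8, next 18.1), c8g (47.3, next 9.23) and c9 (546, next 121). UCP1 (1301 CPM, next 300) and rnasel2 (155, next 0.369) complete the 16.

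Depleted replicate 2 stood apart for FABP6 (171 CPM, next 6.60) and krt92 (349, next 22.2), and depleted replicate 5 for atp2a1l (48.2, next 2.40) and EPX (202, next 48.4).

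Among recovering testes, replicate 1 was high for shbg (5.31 CPM, next 1.81), mhc2dab (137, next 41.1), ctss2.2 (85.0, next 39.1) and EPX (21.4, next 4.16). Replicate 2 was high for rnasel2 (1.43 CPM, next 0.231), replicate 4 for krt92 (6.51, next 3.13) and replicate 5 for ANO5 (58.5, next 32.1) and c3a.3 (7.09, next 3.35). Replicate 3 was low for mhc1zda (3.08 CPM, next 7.46).

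Among control testes, replicate 1 was high for EPX (21.4 CPM, next 4.01), ctss2.2 (34.3, next 28.7) and FABP6 (0.684, next 0.103). Replicate 3 was low for atp2a1l (0.464 CPM, next 1.60), replicate 4 for c7a (43.2, next 60.7) and replicate 5 for cyp2ad3 (10.8, next 14.8). The level of EPX was thus high in replicate 1 of both the recovering and the control group, as was that of ctss2.2.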

How the results depend on the processing

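In the depleted against control comparison, 125 to 187 members were called under the alternatives that kept all libraries of both groups or took those under 20000000 counts, instead of 184. Only calls in the direction of the rule were counted, so these numbers cannot show a change of sign. At adjusted p under 0.05 these alternatives called 5565 to 7625 of all genes higher in depleted testes, instead of 7273. The 125 came from adjusted p under 0.01, where 10569 of all genes were called in either direction. The fits held 185 to 200 of the members. The same contrasts chose the members, so the counts of members called in this section are a description. Leaving out 1 library at a time gave 132 to 190 members higher in depleted than in control testes, where 6653 to 7578 of all genes were. It gave 133 to 189 members lower in recovering than in depleted testes (190 in the full fit), where 5608 to 6848 of all genes were. Between recovering and control testes 0 members differed. Membership was less stable: of the 200 members, 134 to 196 passed the thresholds with 1 library left out, the fewest without depleted replicate 4. With the cut to the 200 largest ratios also redone, 126 to 185 of the members were chosen again. With group medians in place of means 108 passed the thresholds, not counting that cut. So did 111 without depleted replicates 1 and 4 and 179 without recovering replicates 2 and 5, both pairs chosen after seeing the data. Without that recovering pair 167 members were higher in depleted than in control testes, as were 7192 of all 21566 genes in that fit. In it 128 members were lower in recovering than in depleted testes, as were 4899 of all genes. Between recovering and control testes 0 members differed, with 14 such genes in all. With TMM-scaled CPM, 600 genes instead of 337 passed the thresholds. Among all genes, recovering against control gave 96 calls, but 1254 in a fit of those groups alone, 1353 in DESeq2, 2374 in limma's voom and 0 to 556 with 1 library left out.

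The log2 ratios in this paragraph were read only for the 49 members followed by name. Other members named above were not read here, and some, among them agt and uox, also had depleted medians below their control medians. With group medians the log2 ratio of depleted to control turned negative for 17 of the 49: fabp10a -0.69, hpxa -3.27, fga -2.94, FGB -1.51, f2 -0.69, SERPINC1 -0.31, PLG -0.52, CP -1.41, TAT -0.29, hpda -2.52, c3a.2 -1.25, c3a.3 -1.02, cfb -2.21, c5 -2.10, c8a -0.45, c9 -2.77 and shbg -0.87. Without depleted replicates 1 and 4 it was -1.92 for fabp10a, -3.45 for hpxa, -3.50 for fga, -2.63 for FGB, -0.78 for f2, -0.49 for SERPINC1, -1.51 for PLG, -1.70 for CP, -0.70 for TAT, -2.79 for hpda, -0.65 for apoa4b.1, -1.77 for c3a.2, -1.86 for c3a.3, -2.53 for cfb, -2.78 for c5, -0.69 for c8a, -0.55 for c8g, -3.15 for c9, -1.49 for shbg and -0.36 for rnasel2. With 1 library left out at a time, rnasel2 ranged from -0.19, without depleted replicate 4, to 5.85, and atp2a1l from -0.01, without depleted replicate 5, to 2.89. These members are high in the libraries left out and not in the rest, as their values show.

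Replicate numbers did not pair the libraries: over 13 pairs with the same number the correlation of deviations from the group means averaged 0.0245, from -0.159 to 0.241, with 3 pairs over 0.1. Adding the replicate number to the model as a block term called 133 members higher in depleted than in control testes, as were 6948 of all 21277 genes. That model called 128 members lower in recovering than in depleted testes, as were 5966 of all genes. Between recovering and control testes 0 members differed, and 9 genes in all.

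Depth limits the low values: at 3 counts the floor is 0.298 to 0.369 CPM in depleted, 0.120 to 0.346 CPM in recovering and 0.0617 to 0.348 CPM in control libraries, so levels below these are not told from 0.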

Other observations

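Further members, chosen here after their values were seen, touch processes not described above. In the block that was high in depleted replicates 1 and 4 were also AGXT, which detoxifies glyoxylate, GAMT, which makes creatine, MAT1A, the liver enzyme for S-adenosylmethionine, IGFALS, for the plasma partner of the insulin-like growth factors, and the pentraxin genes apcs and crp3, whose relatives are acute phase proteins in mammals. The set that missed 4-fold in depleted replicate 2 held the histone methyltransferase gene ezh1, the cyclin gene CCND2 and the toll-like receptor gene tlr21, with tlr21 at 15.9, 5.41, 13.9, 9.41 and 21.9 CPM in depleted, 0.854 to 5.54 CPM in recovering and 0.884 to 2.96 CPM in control testes.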
